A study of Drosophila melanogaster with 3 samples.

Results

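The trypsin and Jonah genes of Drosophila melanogaster encode serine proteases that digest food protein in the midgut, and their RNA was measured here in libraries labelled as skeletal muscle. Members were all genes whose symbol begins with Jon and a digit or ends in Try, which gave 27 of the 15682 genes listed, namely 16 Jonah genes and 11 trypsins named with Greek letters. The 3 libraries form a single group, taken from 10-day-old males with RNA interference (RNAi) against Ptx1, the fly gene of the PITX family of transcription factors. The sample titles name Mhc-Gal4, a driver in which the promoter of a muscle myosin heavy chain gene makes the activator Gal4 in muscle. The titles write the RNAi as PtxRNAi2 without saying what the final digit stands for. The labels give no strain and no number of animals per library, and they do not say whether the libraries came from separate flies, so p-values and SDs measure only the spread between these samples, part of which may be technical. The design text of the series sets these libraries against control libraries of another series, which were not analysed here, so no value below compares RNAi with control.

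Both families share the fold of chymotrypsin and are made by enterocytes, the absorptive cells of the midgut epithelium. The enzymes are secreted into the gut lumen as inactive zymogens and become active when a short leading peptide is cut off. Trypsins cut proteins after lysine or arginine, whereas Jonah proteases are mostly grouped with the chymotrypsin-like and elastase-like enzymes. The genes lie in runs of neighbouring copies, so reads from one copy can match another, and the counts of close relatives are uncertain for that reason.

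The libraries were deep enough to measure nearly all members. They held 35988267, 50794384 and 52675322 gene counts in libraries 1, 2 and 3, and levels are given as counts scaled to a library total of 1000000 (CPM). A gene with no count could have had a level of up to 0.0834, 0.0591 or 0.0570 CPM, taking 3 counts as the limit. Of the 27 members, 24 reached 1 CPM in every library, and each member had at least 1 count in every library. A gene was called variable where its spread over the libraries exceeded that of similarly abundant genes (edgeR, adjusted p below 0.05). Intervals below are exact Clopper-Pearson intervals at 95% that cover counting error only.

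Library 3 lay between the other libraries in 215 of the 216 genes called variable. Over 10425 genes outside the families, library 3 was matched most closely by a sum of 39.5% of the library 1 level and 60.5% of the library 2 level. Against that sum the chi-square per degree of freedom of library 3, set against counting error, was 4.49, whereas it was 44.5 against library 1 alone and 24.6 against library 2 alone, and libraries 1 and 2 gave 108 against each other. Sums built for library 1 from libraries 2 and 3, or for library 2 from libraries 1 and 3, came no closer than 43.0 and 24.5. Weights could not be negative, and both of these sums ended with nearly 100% of the weight on library 3. They therefore only repeat the comparisons with library 3 alone and are no separate evidence. The source of the middle place of library 3 was not tested. Library 3 thus added little spread of its own, and n = 3 in the means below rests mainly on the contrast of libraries 1 and 2.

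Marker genes of muscle and of other tissues were present together. The 18 muscle genes summed to 29161, 32871 and 31118 CPM in libraries 1, 2 and 3. Of these genes edgeR called none variable, with DESeq2 size factors as well, which is near the 2.05% called of all genes tested. The 2 with an unadjusted p below 0.05 were sls, at 2036.4, 3593.9 and 2798.5 CPM, and bt, at 2543.5, 4451.6 and 3565.7 CPM. Both were lowest in library 1 and highest in library 2. The other muscle genes did not share 1 direction. Mhc, at 4199.8, 4901.0 and 4376.2 CPM, was lowest in library 1, whereas Mlc2, at 3045.4, 2857.8 and 3007.7 CPM, was highest there. Over the 18 muscle genes the median log2 ratio of library 1 to library 2, with 0.5 CPM added, was 0.04. Genes of the gut, fat body, nervous system and eye were counted as well, and the 5 photoreceptor genes summed to 134, 1315 and 874 CPM. In bulk RNA of this kind, a smaller number of cells of a type and less RNA per cell cannot be told apart.

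Together the 27 members held 1.04%, 0.777% and 0.828% of gene counts in libraries 1, 2 and 3, a mean of 0.881 ± 0.138% (SD, n = 3). Library 1 was the highest, at 1.34 times library 2 (counting interval 1.33 to 1.34). Uncalled genes outside the families also differed between these libraries. RpL18, at 818, 607 and 651 CPM, and RpL13, at 859, 651 and 693 CPM, were highest in library 1, whereas sls and bt were lowest there. Whether the summed ratio is particular to the members was not tested. The Jonah genes summed to 5146, 3362 and 3789 CPM and the trypsins to 5232, 4405 and 4493 CPM, so the ratio of library 1 to library 2 was 1.53 (1.52 to 1.54) for the Jonah genes and 1.19 (1.18 to 1.20) for the trypsins. A few genes carried most of the counts. The 6 members with the most counts, alphaTry, betaTry, Jon65Aiv, Jon99Cii, Jon65Aiii and Jon99Ciii, held 87.2% of the summed level, and counts here were not divided by gene length.

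**Figure D1:**
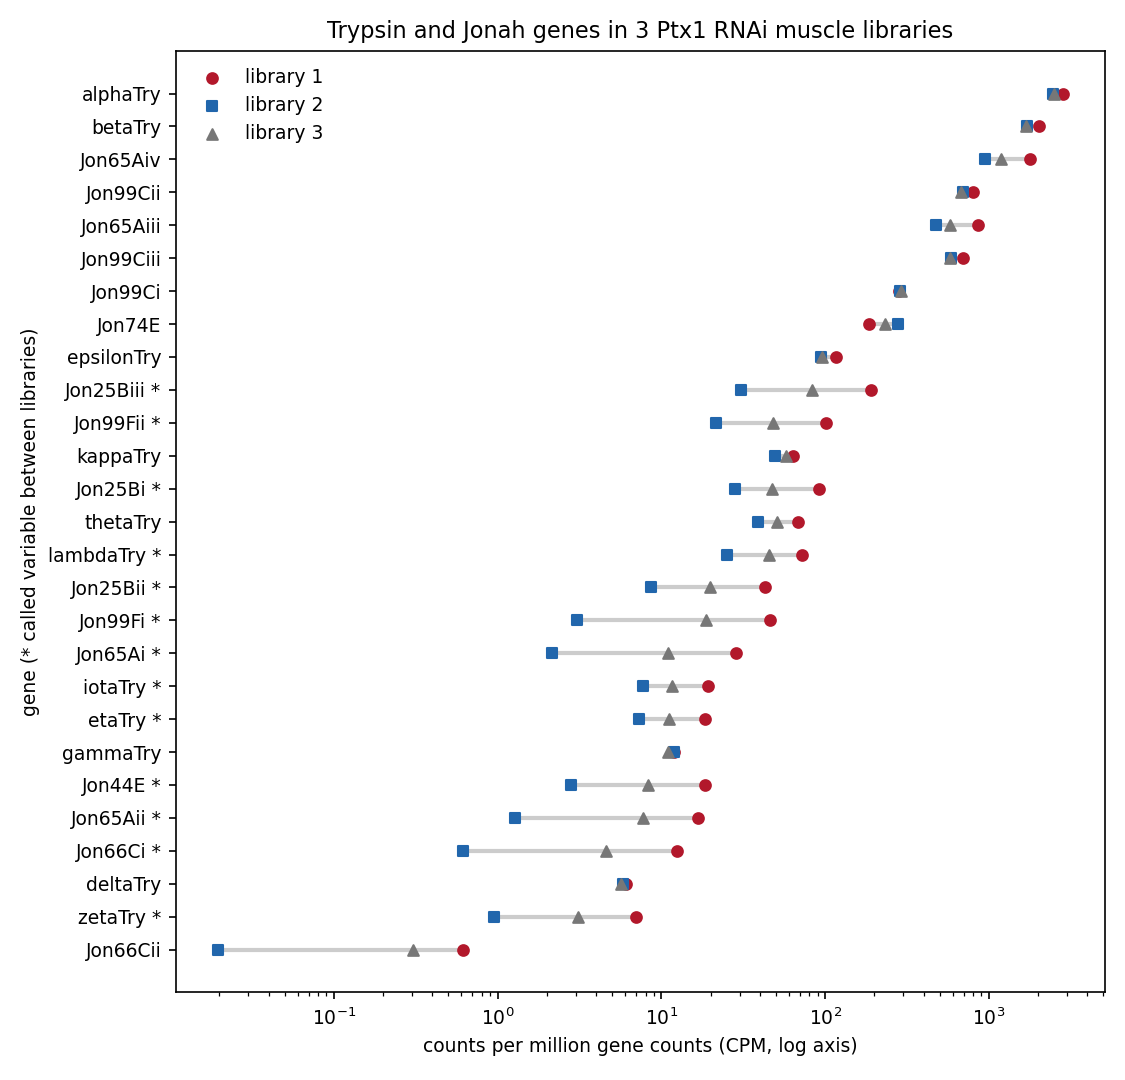
Level of each of the 27 genes in CPM (log axis) in libraries 1, 2 and 3; gray bars join the lowest and the highest library, and an asterisk marks the 13 genes called variable between libraries. The range of alphaTry is narrow, from 2456 to 2816 CPM, that of Jon65Aiv is wider, from 950 to 1775 CPM, and Jon99Fi spans 3.07 to 46.3 CPM with library 3 between the others.

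Among the trypsins, alphaTry and betaTry, the best known trypsins of the fly midgut, took most of the counts and varied little. alphaTry stood at 2816, 2456 and 2512 CPM in libraries 1, 2 and 3, a mean of 2595 ± 194 CPM (SD, n = 3). betaTry stood at 2032, 1708 and 1689 CPM, a mean of 1810 ± 193 CPM. Library 1 was the highest for both, by 1.15 times over library 2 for alphaTry and 1.19 times for betaTry, and neither gene was called variable (edgeR adjusted p = 1 for each). epsilonTry, which lies between them in gene order, followed the same pattern at 116, 94.0 and 95.8 CPM.

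The trypsin copies gammaTry and deltaTry varied least among the trypsins. gammaTry stood at 11.9, 11.9 and 10.9 CPM and deltaTry at 6.09, 5.81 and 5.68 CPM. Their coefficients of variation were 5.11% and 3.57%, and their counting intervals for the ratio of library 1 to library 2 spanned 1, at 0.886 to 1.14 and 0.876 to 1.25. The genes CG30031 and CG30025 lie between them in gene order and were named for that position, although their symbols are not of the kind that defines members. They stood at 10.7, 8.23 and 8.96 CPM and at 14.2, 13.5 and 12.8 CPM. All 4 genes are close copies of each other, so how their counts divide among them is uncertain.

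Of the remaining trypsins, 4 were called variable, each with its peak in library 1 and its lowest level in library 2. lambdaTry stood at 72.6, 25.3 and 45.5 CPM, a ratio of library 1 to library 2 of 2.87 (2.68 to 3.07; edgeR adjusted p = 6.1e-05). zetaTry stood at 6.97, 0.945 and 3.08 CPM, a ratio of 7.38 (5.40 to 10.3; edgeR adjusted p = 8.2e-08). The calls of lambdaTry and zetaTry were lost without library 2, where the edgeR adjusted p was 0.167 and 0.0651. etaTry stood at 18.4, 7.30 and 11.1 CPM (edgeR adjusted p = 0.0108) and iotaTry at 19.3, 7.68 and 11.6 CPM (edgeR adjusted p = 0.00999). These 2 genes, which do not lie side by side, had nearly equal levels in each library and nearly equal ratios, 2.51 (2.21 to 2.86) for etaTry and 2.51 (2.21 to 2.85) for iotaTry. Both calls were lost whichever library was left out, with an edgeR adjusted p of 0.454, 0.375 and 0.181 for etaTry and 0.458, 0.324 and 0.176 for iotaTry without libraries 1, 2 and 3. thetaTry, at 68.6, 38.9 and 51.1 CPM, and kappaTry, at 63.6, 49.3 and 57.3 CPM, had the same order of libraries and were not called (edgeR adjusted p = 0.398 and 1).

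The Jonah genes with the most counts fell into 3 patterns. Jon65Aiv stood at 1775, 950 and 1182 CPM, and its neighbour Jon65Aiii at 859, 474 and 581 CPM. Library 1 was 1.87 times (1.85 to 1.89) library 2 for Jon65Aiv and 1.81 times (1.78 to 1.84) for Jon65Aiii, and neither passed the threshold (edgeR adjusted p = 0.0905 and 0.156). The Jon99C genes were steadier, and Jon99Ci had the lowest coefficient of variation of all members, at 1.98%. Jon99Cii stood at 800, 690 and 673 CPM, Jon99Ciii at 696, 583 and 577 CPM, and Jon99Ci at 281, 288 and 292 CPM, with an edgeR adjusted p of 1 for each. Jon74E went against all other Jonah genes outside the Jon99C run. It stood at 185, 278 and 233 CPM, lowest in library 1 and highest in library 2, with a ratio of 0.667 (0.647 to 0.686), and it was not called (edgeR adjusted p = 1).

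The Jonah genes with fewer counts spread far more. Jon99Fi stood at 46.3, 3.07 and 18.7 CPM, a ratio of library 1 to library 2 of 15.1 (12.8 to 17.9; edgeR adjusted p = 5.5e-28). It ranked as number 6 by p of all genes tested. Its neighbour Jon99Fii stood at 101, 21.5 and 48.0 CPM, with a smaller ratio of 4.70 (4.39 to 5.03; edgeR adjusted p = 2.3e-11). Jon65Ai stood at 28.5, 2.15 and 10.9 CPM and Jon65Aii at 16.8, 1.28 and 7.71 CPM. For this neighbouring pair the ratios were close, 13.3 (10.9 to 16.3) and 13.1 (10.2 to 17.2), and both genes were called (edgeR adjusted p = 5.1e-22 and 1.1e-17).

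The Jon25B run and Jon44E were also highest in library 1, by smaller factors than Jon99Fi and the Jon65Ai and Jon65Aii pair. Jon25Biii stood at 191, 30.7 and 83.6 CPM, Jon25Bii at 43.2, 8.64 and 19.7 CPM, and Jon25Bi at 92.0, 28.2 and 47.4 CPM. Library 1 was the highest for each, with ratios to library 2 of 6.21 (5.88 to 6.57), 4.99 (4.49 to 5.56) and 3.26 (3.06 to 3.47), and each was called (edgeR adjusted p = 8.2e-17, 1.5e-11 and 1.2e-06). Jon44E, which has no neighbouring member, stood at 18.4, 2.80 and 8.33 CPM, a ratio of 6.57 (5.47 to 7.93; edgeR adjusted p = 3.4e-11).

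The Jon66C pair had the fewest counts among the Jonah genes and the widest ratios. Jon66Ci stood at 12.4, 0.610 and 4.58 CPM, from 448, 31 and 241 counts, a ratio of 20.4 (14.2 to 30.4; edgeR adjusted p = 3.0e-19). Jon66Cii stood at 0.611, 0.0197 and 0.304 CPM, from 22, 1 and 16 counts. With a single count in library 2, its ratio of 31.1 had an interval of 5.02 to 1282, and it was the only member under 1 CPM in every library and the only one that the filter on low counts kept from the test.

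Across the families, 13 of the 26 members tested were called variable between libraries, against 2.05% of the 10522 genes tested. All 13 were highest in library 1, a pattern found in 1.30% of all genes tested, and none was highest in library 2, against 0.741%. The 13 comprised 9 of 15 Jonah genes and 4 of 11 trypsins, and this difference between the families was not tested. The same number, 13 members, stood at least 2-fold higher in library 1 than in library 2, against 2.21% of all genes tested. The median log2 ratio of library 1 to library 2, computed with 0.5 CPM added, was 1.09 over 26 members with a mean of at least 1 CPM and 0.02 over 9751 genes of the same kind. It was 2.21 for the 15 Jonah genes and 0.36 for the 11 trypsins. The calls concern these libraries and not a condition. Without library 3, the one close to a sum of the others, 11 of the 13 calls were kept, all but etaTry and iotaTry; without library 1 the same 11 were kept, and without library 2, where lambdaTry and zetaTry were lost too, 9 were kept.

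The members called variable were mostly those with few counts, whereas gammaTry and deltaTry had few counts and were not called. The called members held 4.26% of the summed level of the families, from 666 CPM in library 1 to 140 CPM in library 2 and 320 CPM in library 3. Members not called summed to 9711, 7626 and 7962 CPM. Across the 26 members, the level and the log2 ratio of library 1 to library 2 had a Pearson correlation of −0.56 and a Spearman correlation of −0.50, and across the 15 Jonah genes −0.85 and −0.79. Among the 11 trypsins the values were −0.46 and −0.25. These values describe genes that share libraries and are not independent of each other, and both quantities come from the same counts.

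The members did not move by a single factor between libraries. Ratios of library 1 to library 2 ran from 0.667 in Jon74E to 20.4 in Jon66Ci among the members tested, with counting intervals far apart. In the gene order of RefSeq's table for the Release 6 plus ISO1 MT assembly, 25 of the members lie in 6 runs of neighbours and 2, Jon44E and Jon74E, stand alone. The files do not name the fly build behind the counts, so the table was used for gene order only. In the runs of Jon25B, Jon66C and Jon99C genes, the members of a run had similar ratios or the same direction apart from Jon99Ci, at 0.976. The Jon65A run divided, with Jon65Aiv and Jon65Aiii at one end under 2-fold and Jon65Aii and Jon65Ai at the other above 10-fold. The Jon99F pair differed by more than the counting error, at 4.70 and 15.1. In the trypsin run, the called genes lambdaTry, zetaTry and etaTry lie near one end and iotaTry at the other, and alphaTry, epsilonTry, betaTry, gammaTry and deltaTry, none of them called, lie between.

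**Figure D2:**
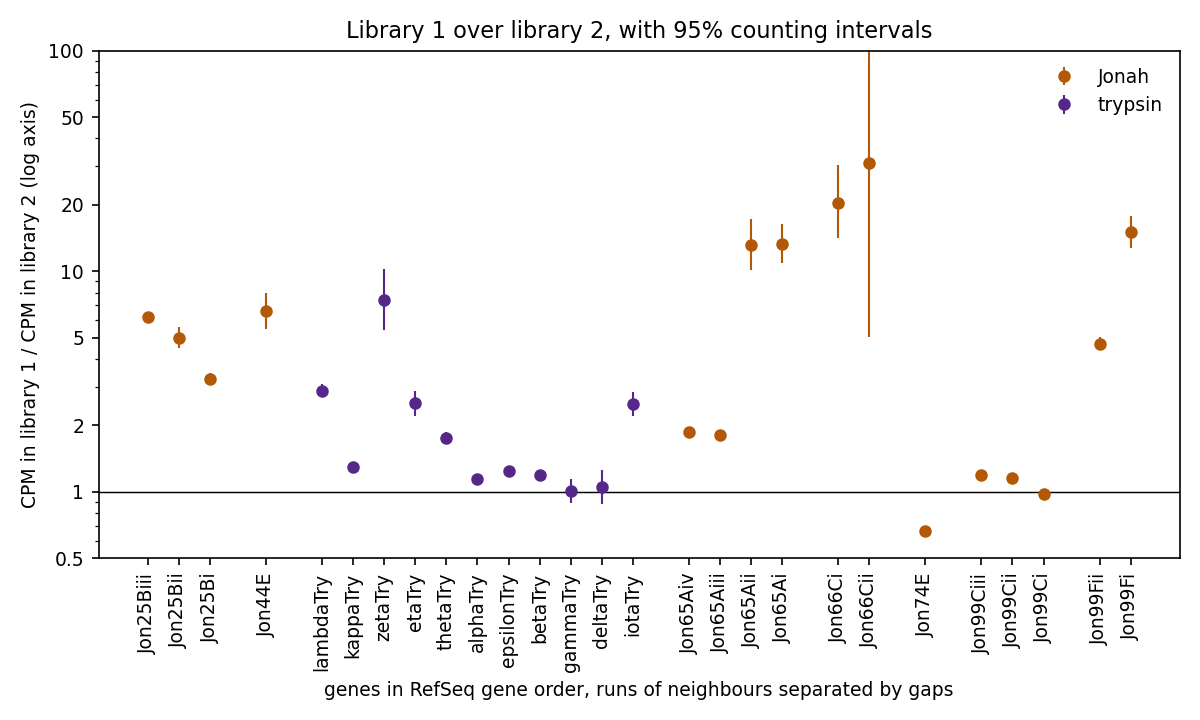
Ratio of the level in library 1 to that in library 2 (log axis) for each gene in RefSeq gene order, with gaps between runs of neighbours; bars are exact 95% counting intervals and that of Jon66Cii runs past the top of the axis. The Jon65A run divides into Jon65Aiv and Jon65Aiii, at 1.87 and 1.81, and Jon65Aii and Jon65Ai, at 13.1 and 13.3, and Jon74E alone lies clearly under 1.

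Library 3 held a middle place for the members as it did for other genes. It lay between libraries 1 and 2 in 20 of 26 members tested, against 66.5% of all genes tested, and in all 13 members called. In those 13 members it lay at 30.2% to 42.8% of the way from the library 2 level to the library 1 level, with a median of 33.9%. Of the 203 other genes called variable, library 3 lay between in 202, with a median of 40.0% of the way. The weights found on genes outside the families gave predicted library 3 levels near those counted, though most members were counted below the prediction. For Jon99Fi the prediction was 20.1 CPM against 18.7 CPM counted, and for Jon25Biii 93.8 against 83.6 CPM. It was 2598 against 2512 CPM for alphaTry, and 7.41 against 7.71 CPM for Jon65Aii, a member above its prediction. The counting intervals in library 3 stayed below the prediction for alphaTry (2499 to 2526 CPM), Jon25Biii (81.19 to 86.15 CPM) and Jon99Fi (17.55 to 19.9 CPM). That of Jon65Aii (6.976 to 8.495 CPM) held its prediction. Other members also departed by more than counting error. betaTry lay below, at 1678 to 1700 CPM against 1836 CPM predicted, and kappaTry above, at 55.25 to 59.36 against 54.93 CPM. Called members ranged from 0.866 times the predicted level in Jon66Ci to 1.04 times in Jon65Aii.

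**Figure D3:**
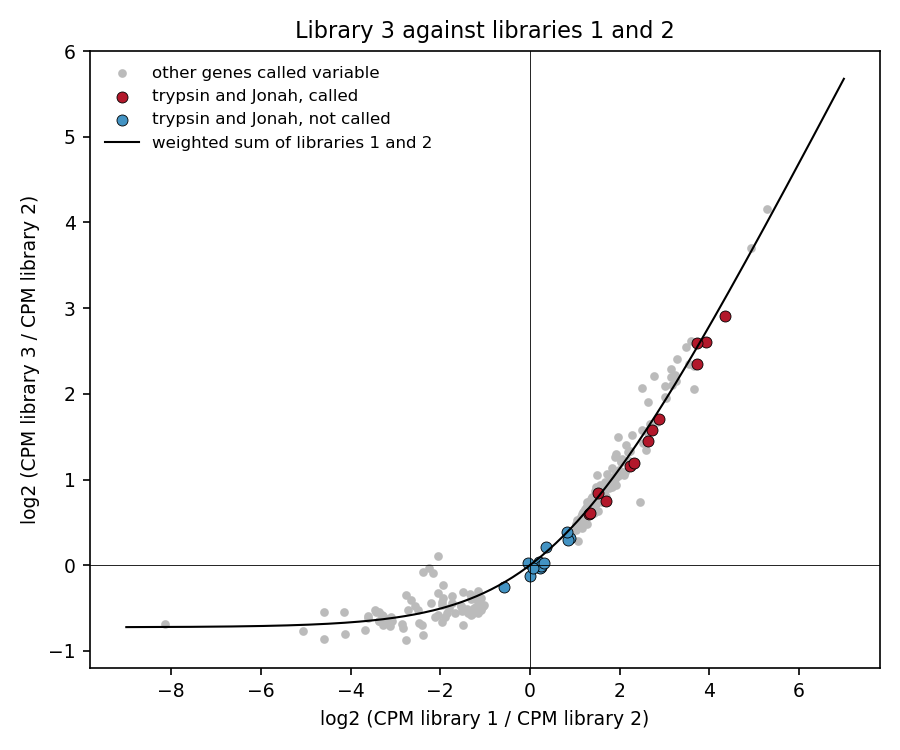
Log2 ratio of library 3 to library 2 against log2 ratio of library 1 to library 2 for the trypsin and Jonah genes (red, called variable; blue, not called; Jon66Cii is left out) and other genes called variable (gray; genes with no count in a library are left out); the curve is a sum of 39.5% of library 1 and 60.5% of library 2, fitted without the members. The 13 called members lie at 0.866 to 1.04 times the level that the curve gives.

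Other digestive genes of the gut also included genes called and genes not called. Their lists were chosen with earlier results of these data known, so the counts of calls are descriptions only. On a chosen list of other digestive serine proteases, 5 genes were tested and 2 were called, both highest in library 1, against 2.05% of all genes tested. Genes not on the list were not sorted by family, so the list does not stand for all such proteases. Ser8 stood at 38.9, 6.73 and 18.1 CPM (edgeR adjusted p = 8.2e-13). yip7 stood at 1365, 666 and 917 CPM (edgeR adjusted p = 0.0243), a call that was lost without library 1, 2 or 3 (0.137, 0.605 and 0.300) and with a common dispersion (0.0807). Ser7, at 94.6, 85.0 and 89.9 CPM, and Ser6, at 60.9, 35.7 and 44.5 CPM, were not called, and Ser12 had no count in any library.

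Of 24 other digestive enzymes and lysozymes tested, 8 were called, all highest in library 1, against 2.05% of all genes tested. This list, too, was chosen with earlier results of these data known. The alpha-mannosidase genes CG9463, CG9465, CG9466 and CG9468 had ratios of library 1 to library 2 of 8.87, 9.36, 4.54 and 4.54, with CG9468 at 465, 102 and 239 CPM (edgeR adjusted p = 1.3e-11). The maltase Mal-A3 was at 126, 35.1 and 71.0 CPM (edgeR adjusted p = 1.8e-07), and mag, a lipase gene, was at 148, 49.9 and 90.3 CPM (1.4e-05). LysX stood at 5.67, 0.472 and 2.89 CPM (edgeR adjusted p = 6.6e-10) and Amyrel at 7.42, 1.24 and 3.15 CPM (edgeR adjusted p = 1.0e-06). Without library 2, mag, LysX and CG9465 were no longer called (edgeR adjusted p = 0.130, 0.355 and 0.165). The genes of this list with the most counts, were not called: the maltases Mal-A1, at 2533, 1890 and 2132 CPM, and Mal-A6, at 1252, 1185 and 1197 CPM, and an amylase, Amy-p, at 1180, 1334 and 1169 CPM.

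Of the genes that mark the cells of the gut, 2 of 8 enterocyte genes tested were called, against 2.05% of all genes tested. The 9 enterocyte genes summed to 221, 178 and 197 CPM. Myo31DF, a myosin of the enterocyte brush border, stood at 117, 108 and 117 CPM, and GATAe, a transcription factor of the midgut, at 12.5, 15.3 and 13.6 CPM. Only the peptidoglycan recognition genes PGRP-SC1b and PGRP-SC2 were called among the 8 tested, at 2.47, 0.197 and 0.816 CPM and at 29.6, 8.66 and 16.1 CPM (edgeR adjusted p = 2.3e-07 and 8.0e-06). PGRP-SC2 lost its call without library 2 (0.0630), and PGRP-SC1b could not be tested without library 3. PGRP-SC1a, at 1.278, 0 and 0.4556 CPM, was kept from the test by the filter on low counts. Without that filter it was called (edgeR adjusted p = 1.5e-06). The uncalled genes nub, at 25.76, 18.29 and 19.25 CPM, and cad, at 9.725, 5.571 and 6.948 CPM, were highest in library 1. The uncalled gene lab, at 1.167, 1.555 and 1.481 CPM, was lowest in library 1, as GATAe was. The 8 genes of gut hormones and stem cells summed to 189, 181 and 188 CPM, with none called by edgeR and none at an unadjusted p below 0.05. For a list of this size, that count of calls is near the share over all genes tested. Whether the RNA of these 8 genes came from the gut or from other tissue was not tested. Neither was the part of gut content in the results.

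None of the listed serine proteases outside digestion was called, which for so few genes is near the 2.05% called of all genes tested. Eye genes were called in the opposite direction to the members. Of 11 non-digestive serine proteases tested, which act in blood, immunity and development, edgeR called none with either normalization. The 1 gene with an unadjusted p below 0.05 was Corin, at 7.67, 17.4 and 12.7 CPM (adjusted p = 0.0655), which was called with a common dispersion (0.0403). The list summed to 583, 580 and 586 CPM. SPE, which processes the Toll ligand, stood at 179, 168 and 175 CPM. All 5 photoreceptor genes were called, with their lowest levels in library 1, led by the rhodopsin gene ninaE at 110, 1066 and 708 CPM (edgeR adjusted p = 2.9e-25). Without library 1, ninaC was no longer called (edgeR adjusted p = 0.0727) and chp lay just above the threshold. Neuron and glia genes summed to 726, 1083 and 949 CPM, with none of 6 called by edgeR, also near that share, and 2 at an unadjusted p below 0.05. Of the 6 genes of testis and accessory gland, Acp26Aa and Acp70A had no count in any library and the list summed to 1.94, 0.138 and 0.797 CPM. The part of other tissues in the levels of the members was not tested.

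**Figure D4:**
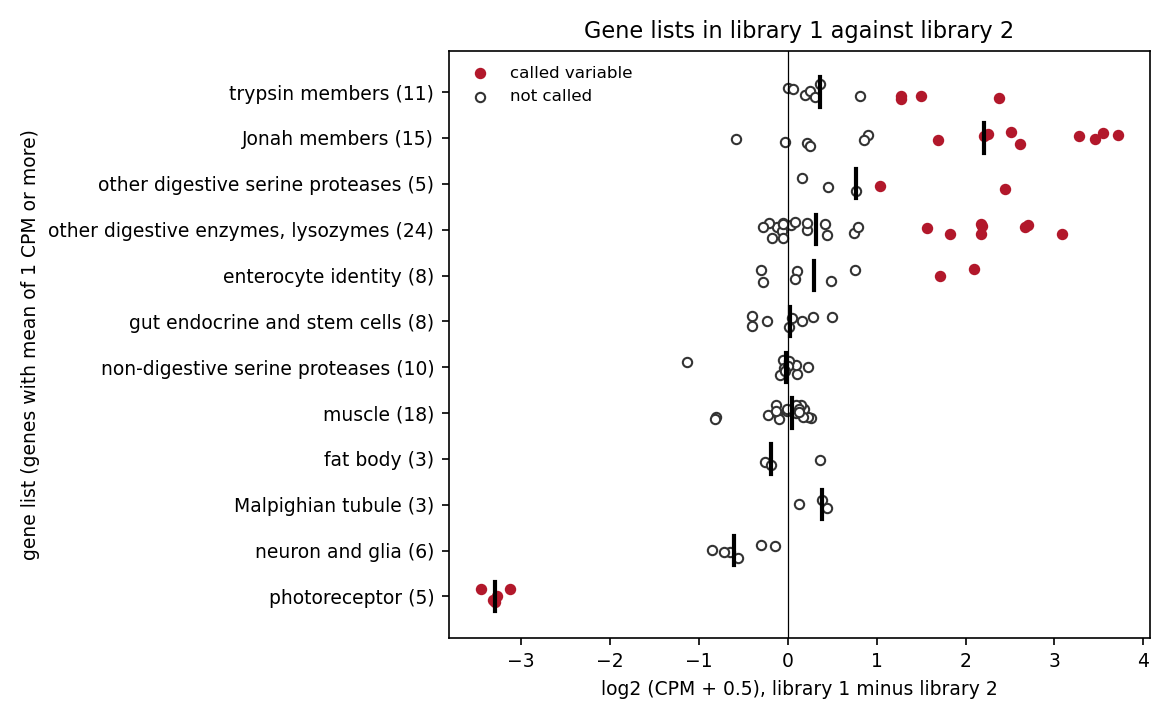
Difference of log2 (CPM + 0.5) between library 1 and library 2 for the trypsin and Jonah genes and for other gene lists, with 1 point per gene with a mean of at least 1 CPM; filled points were called variable between libraries and black bars are list medians. The 15 Jonah genes have a median of 2.21, the 11 trypsins 0.36, the 18 muscle genes 0.04 and the 5 photoreceptor genes −3.29.

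The RNAi target Ptx1 stood at 15.7, 12.3 and 12.2 CPM in libraries 1, 2 and 3 and was not called variable (edgeR adjusted p = 1). Its level in library 1 was 1.28 times that in library 2. How far RNAi had lowered its RNA, and in which tissue, cannot be read from these levels.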

How the data were processed

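Per the labels' protocols, stranded TruSeq libraries of mRNA were read from both ends over 100 bases. The authors deposited raw counts for each gene symbol; the submitters' processing notes name CASAVA 1.7, BWA, STAR and HTSeq without their roles and mm9, a mouse build, so the fly build and whether counting used strand are not given in the sources used here. The 5 rows that name no gene held 22.0% to 25.1% of each file's total and were left out. The 6 columns of samples outside this series were not used. CPM is the count divided by the library's gene total. edgeR 4.0.16 (R 4.3.3) fitted an intercept over all genes passing filterByExpr, with TMM factors and trended dispersion; goodness of fit was tested by chi-square with 2 degrees of freedom, and genes with a Benjamini-Hochberg adjusted p below 0.05 over all genes tested were called variable. Both this test and the fit of library 3 were run on data drawn with known answers. For the test, library 3 was drawn apart from the others, and for the fit the draws held counting error only. Neither draw therefore matched these data in full. Genes with at least 50 counts over the libraries entered the fit of library 3. Of 108 list entries 105 were matched, 6 of them through RefSeq synonyms. Members and lists were chosen with earlier results of these data known. Values are printed for all 27 members. Of other lists, values are printed for some genes only, a few of them named as markers after their values were seen. Called photoreceptor genes other than ninaE are among those without printed levels. Runs of neighbours allowed up to 5 other genes between members. Levels per gene length, promoter letters and protein features were planned and not made. Alternatives were DESeq2 1.42.0 size factors, no filter on low counts, a common dispersion, other library totals, pseudocounts and thresholds, and leaving out each library.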

Additional observations from a re-analysis of the deposited data

How the results depend on the processing

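The number of members called was 13 with all libraries, 13 with DESeq2 size factors or a common dispersion, 14 without a filter on low counts, where Jon66Cii was added, and 9 to 11 with a library left out. Over all genes the number was 216, and 89 to 124 with a library left out, where 1 degree of freedom remains; it was 213, 244 and 262 under the other settings in the same order. The summed share of 0.881% became 0.440% without alphaTry and betaTry, as a smaller list requires, and the ratio of library 1 to library 2 rose from 1.34 to 1.53. Other library totals and leaving out a library kept the share between 0.802% and 0.941%, and the median log2 ratio of the members lay between 1.06 and 1.11 under every total, pseudocount and set of members tried. The number of members at the detection threshold in every library was 24, and 20 to 26 under the alternatives. No paired analysis was possible because the labels give a single group. Depth limits most the ratio of Jon66Cii, which rests on 1 count in library 2.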
